A study of Mus musculus with 4 samples.

Results

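Monocytes are drawn into injured tissue by chemokines and are kept alive there by growth factors. Described here are 8 genes of that exchange in mouse liver: the ligand genes Ccl2, Ccl7, Csf1, Cx3cl1 and Cxcl16, and the receptor genes Ccr2, Cx3cr1 and Csf1r. They were listed by name, and all 8 were found among the 50766 genes of the count tables.

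CCL2 and CCL7 are secreted chemokines that bind CCR2, the receptor by which inflammatory monocytes leave the bone marrow and follow a gradient into tissue. CX3CL1 (fractalkine) and CXCL16 are made as membrane-anchored proteins that can hold leukocytes on the producing cell and are shed by the proteases ADAM10 and ADAM17, and their receptors are CX3CR1 and CXCR6. CSF1 and IL34 are the ligands of CSF1R, the receptor tyrosine kinase on which monocytes and macrophages depend for survival. In the liver, biliary epithelial cells (BECs, the lining of the bile ducts) and the stellate cells and fibroblasts around the ducts are known sources of such signals during cholestasis.

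The data are single-cell RNA sequencing of liver cells from mice of genotype Sox9EGFP, in which all 4 samples are labelled as biliary epithelial cells. Each was taken 7 days after surgery: 2 after a sham operation, and 2 after bile duct ligation (BDL), which ties off the common bile duct and stops bile flow. The labels give no sex, age or batch, and do not say how the cells were selected. Each sample gave 1 library, so n = 2 per group, and replicate numbers follow sample order and pair nothing. The library names look like animal numbers, but the labels do not say outright that each is a separate mouse, so p-values measure the spread between these libraries.

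The 4 libraries held 2082 to 4060 cells after filtering and 10024577 to 33809650 UMIs (unique molecular identifiers, each counting 1 captured transcript). Depth moved with the group: the median per cell was 3260 and 2610 UMIs for sham, and 7058 and 7793 UMIs for BDL. No cell barcode was shared between libraries. The group name in the deposited cell tables contradicted the sample label of 2 libraries: it read BDL for sham replicate 2 and sham for BDL replicate 2. The largest subcluster of biliary-like cells held 59.9% and 62.4% of those cells in the libraries labelled sham, and 0.508% and 0.183% for BDL. Groups below follow the sample labels, "sham" and "BDL" mean the libraries so labelled, and values without single libraries, or from only the 2 whose names match, stand beside the results they change. Levels are CPM, the UMIs of a gene scaled to a fixed total of UMIs of the same cell class and library. Different genes are not compared on it, since length and priming differ between them.

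Of the 12180 cells kept, BEC-like cells made up 91.7%, 81.6%, 94.6% and 94.1% of the libraries in the order sham replicates 1 and 2, BDL replicates 1 and 2, which is used throughout; all 11 biliary markers were detected in each. Mesenchymal-like cells, marked by Pdgfrb, Col1a1, Dcn and other stromal genes, numbered 187, 416, 71 and 133. The immune receivers were few: 50 cells were macrophage-like, 6, 11, 12 and 21 per library. Endothelial-like cells numbered 40, 122, 19 and 34, and hepatocyte-like cells 2, 36, 7 and 32. A further 24 cells clustered with the macrophages at one resolution and with BECs at a finer one, held 2 Ptprc UMIs in all and were left out of both classes.

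Ccl2 had the largest fitted rise of the 5 ligands in BEC-like cells. Its level was 18.9 and 11.8 CPM with sham and 521 and 438 CPM with BDL, so both BDL values lay far above both sham values. The fitted change was 4.99 on the log2 scale (SE 0.21, a 31.8-fold rise, adjusted p = 0.000146, edgeR quasi-likelihood test with Benjamini-Hochberg adjustment over all genes tested). It was 4.97 with the summed counts thinned to the shallowest library, stayed between 4.78 and 5.30 with each library left out in turn, and was 4.91 in the 2 libraries whose names match.

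In all, 5 of the 6 members that passed the filter on low counts in BEC-like cells were called higher after BDL and 0 lower by edgeR, as by DESeq2; 0 of the 6 had a negative change. Ccr2 and Cx3cr1 did not pass that filter. The background for this count is wide: of 15986 genes tested in BEC-like cells, 27.2% were called, 14.3% as higher. The median log2 change was 1.94 over the 6 tested members and -0.02 over all genes tested. Ccl7, at 6 and 2 UMIs with sham and 105 and 170 with BDL, passed the filter through the BDL libraries. A call as lower was thus hardly open to Ccl7, which counts among the 5 and in this median.

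**Figure D1:**
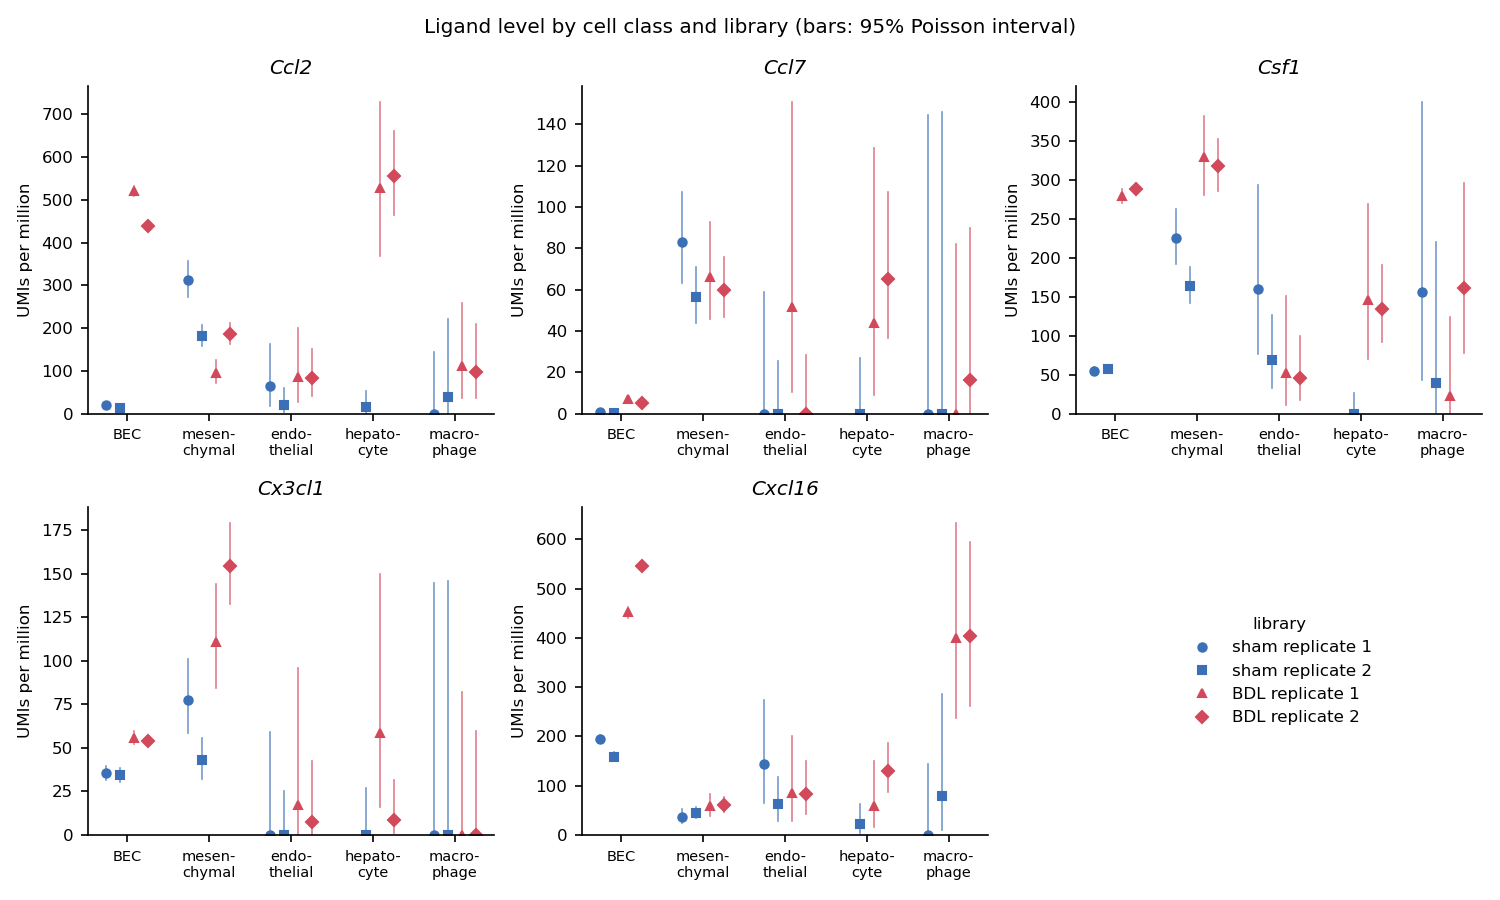
Level of each ligand gene in CPM of the class (y axis, own scale per gene) by cell class (x axis), 1 point per library with its 95% Poisson interval, which covers counting error only; blue is sham, red is BDL, and classes under 5 cells in a library are not drawn. In BEC-like cells Ccl2, Csf1 and Cxcl16 show the 2 red points far above the 2 blue ones, while Ccl2 in mesenchymal-like cells runs from 95.4 to 313 with the groups overlapping on this unscaled level.

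Mesenchymal-like cells did not share the Ccl2 rise. There Ccl2 stood at 313 and 182 CPM with sham against 95.4 and 186 with BDL, and the groups overlapped by a narrow margin. On the values of the fit, scaled by the trimmed mean of M values (TMM), they did not, at 316 and 197 CPM with sham against 99.6 and 185 CPM with BDL. The fitted change was -0.81 (SE 0.33, adjusted p = 0.194), which misses the threshold. This value hung on single libraries: it was -1.14 (adjusted p = 0.0175) without sham replicate 2 and -1.36 (adjusted p = 0.00338) without BDL replicate 2, but -0.43 (adjusted p = 0.606) without sham replicate 1. It also passed with the highest doublet scores removed (-1.08, adjusted p = 0.0257), and was -1.68 in the 2 libraries whose names match.

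The difference between the 2 classes was tested directly, as an interaction, with each library as its own block. The Ccl2 effect in BEC-like cells exceeded that in mesenchymal-like cells by 5.82 on the log2 scale (SE 0.36, adjusted p = 8.83e-07). It lay between 5.30 and 6.50 with each library left out. Altogether 3 of the 7 members tested differed, each with the larger rise in BEC-like cells, against a background of 4.48% of 15302 genes called in either direction and 2.48% called in that direction.

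The cell classes that held Ccl2 transcripts shifted between the groups. In the sham libraries mesenchymal-like cells made up 6.54% and 13.1% of the cells and held 54.0% and 68.6% of all Ccl2 UMIs (95% Clopper-Pearson intervals 49.1 to 58.9% and 63.3 to 73.5%). BEC-like cells held 44.8% and 29.6%. In the BDL libraries BEC-like cells held 98.7% and 97.1% of Ccl2 UMIs and mesenchymal-like cells 0.634% and 1.46%. The mesenchymal-like share of cells was itself lower in both BDL libraries, at 3.41% and 3.28%, and enters those shares; its difference from sham had an exact permutation p of 0.333 over the 4 libraries (two-sided), the smallest that 2 against 2 allow.

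A larger share of BEC-like cells carried Ccl2 in both BDL libraries. With each cell thinned to 1000 UMIs, the share with a Ccl2 UMI was 1.97% and 1.65% with sham and 31.7% and 27.5% with BDL (exact permutation p = 0.333, two-sided, the smallest possible). Thinning left out 85 and 107 sham cells and no BDL cell. Unthinned, the difference in share was 61.6 percentage points in place of 27.8. In the macrophage-like cells of the BDL libraries, a class of lower depth (median 2969.5 and 2480 UMIs), the thinned share was 1 of 12 and 1 of 21 cells.

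Markers of other cell classes were summed in the same BEC-like cells. The summed level of the 12 mesenchymal markers in BEC-like cells was 351 and 248 CPM with sham and 1226 and 1492 CPM with BDL. Rgs5 made up 70.2% and 58.2% of that sum with sham and 98.6% and 97.9% with BDL, rising from 247 and 144 to 1208 and 1461 CPM. The other 11 markers together went from 104.6 and 103.6 to 17.2 and 31.1 CPM, of which Reln was 83.1 and 76.5 against 5.81 and 8.71 CPM. The collagen genes Col1a1, Col1a2 and Col3a1 lay between 2.53 and 6.30 CPM in the 4 libraries. Markers of other classes moved as well: the hepatocyte list summed to 1605 and 1665 CPM with sham and 409.8 and 406 CPM with BDL, and the monocyte list to 318 and 298 against 543 and 807 CPM, of which Fn1 made up 91.7% to 96.2%. The macrophage list gave 55.5, 52.7, 47.4 and 48.3 CPM. The part of these markers in the Ccl2 rise was not tested. In both BDL libraries the Ccl2 level in BEC-like cells lay above that in mesenchymal-like cells. With all cells that held a UMI of a defining macrophage gene left out, the Ccl2 change was 4.98 (adjusted p = 0.000193, edgeR). Csf1r is one of those genes: in BDL replicate 2 this kept 2834 of 3821 BEC-like cells, and 883 of the 3821 held Csf1r.

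Ccl7, the neighbouring gene to Ccl2 in the mouse genome and a second CCR2 ligand, was at a higher level in mesenchymal-like than in BEC-like cells of each library. In mesenchymal-like cells it stood at 83.1, 56.3, 66.2 and 60.0 CPM, and the groups overlapped. The fitted change was -0.17 (SE 0.29, adjusted p = 0.788) and turned to 0.067 without sham replicate 1.

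In BEC-like cells Ccl7 was scarce but rose. The libraries held 6, 2, 105 and 170 Ccl7 UMIs there, which is 0.615, 0.238, 7.18 and 5.31 CPM, so both BDL libraries lay above both sham libraries. The fitted log2 change was 3.83 (SE 0.45, adjusted p = 0.00190), and the difference from mesenchymal-like cells was 3.996 (SE 0.51, adjusted p = 0.000341). With 6 and 2 sham UMIs the size of the change hung on single libraries: it was 4.62 (adjusted p = 0.0142) without sham replicate 1 and 3.44 (adjusted p = 0.0131) without sham replicate 2.

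BEC-like cells, by far the larger class, held 72.4% and 66.9% of Ccl7 UMIs with BDL, against 9.23% and 2.74% with sham. Few single cells were seen with both neighbours: at 1000 UMIs per cell, 2 of 625 Ccl2-bearing BEC-like cells of BDL replicate 1 held Ccl7, and 13 of 1050 in BDL replicate 2. Cells without Ccl2 held Ccl7 in 7 of 1344 and 9 of 2771 cases, so the 2 libraries went opposite ways on this point.

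Csf1 rose in BEC-like cells with little spread between libraries. Its level was 54.3 and 57.3 CPM with sham (mean 55.8 ± 2.13, SD, n = 2) and 279.6 and 289 CPM with BDL (mean 284 ± 6.43, SD, n = 2), with no overlap. The log2 change was 2.36 (SE 0.13, 5.15-fold, adjusted p = 0.000277). The thinned share of BEC-like cells with a Csf1 UMI was 4.21% and 4.38% against 19.9% and 19.7%.

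Mesenchymal-like cells held Csf1 at 225 and 164 CPM with sham and 329 and 318 CPM with BDL. The groups did not overlap, but the change of 0.70 (SE 0.23, adjusted p = 0.116) missed the threshold. The rise in BEC-like cells was larger by 1.66 (SE 0.27, adjusted p = 0.00231), and by 1.32 to 1.86 with each library left out. BEC-like cells, which held 75.2% and 68.9% of Csf1 UMIs with sham, held 95.7% and 95.3% after BDL. They made up 91.7% and 81.6% of the cells with sham and 94.6% and 94.1% with BDL. Their share of Csf1 UMIs was thus below their share of cells with sham and near it with BDL.

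The Csf1 gene is overlapped by Gm40121, a long noncoding RNA. How reads were assigned by strand is not given in the sources used here, so reads of the 2 cannot be told apart where they overlap. Gm40121 itself was counted at 9.02 and 4.88 CPM with sham and 19.0 and 18.3 CPM with BDL in BEC-like cells.

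The promoter of Csf1 is shown because Csf1 rose in BEC-like cells and its promoter was matched by symbol, as were those of 4 of the 8 members (RefSeq, GRCm38.p6, another build than that of the counts). The stretch holds the 250 bases before the annotated start, chr3:107760470-107760719, minus strand, and the capitals mark a match to the NF-kB consensus on the opposite strand, 154 bases before the start.
Csf1: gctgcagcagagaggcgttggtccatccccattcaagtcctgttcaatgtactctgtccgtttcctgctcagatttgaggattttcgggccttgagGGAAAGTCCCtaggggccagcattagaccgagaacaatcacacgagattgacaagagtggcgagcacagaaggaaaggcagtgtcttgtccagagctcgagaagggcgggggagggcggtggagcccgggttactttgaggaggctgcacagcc
The motifs searched on both strands were that consensus, the AP-1 motif TGANTCA, the TATA box TATAAA and the C/EBP motif TTGCGCAA. Over 32851 mouse promoters of the same length, 3.90% held the NF-kB match, 6.75% the AP-1 motif, 12.4% the TATA box and 0.164% the C/EBP motif. A match describes letters only, and binding was not measured.

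Cx3cl1, the fractalkine gene, moved less. In BEC-like cells it was at 35.5 and 34.5 CPM with sham and 55.9 and 54.2 CPM with BDL, tight within each group and not overlapping. The log2 change was 0.67 (SE 0.12, 1.60-fold, adjusted p = 0.00837), but the call did not hold without sham replicate 1 (0.63, adjusted p = 0.0884) or without sham replicate 2 (0.75, adjusted p = 0.0553).

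Cx3cl1 was higher in mesenchymal-like than in BEC-like cells in all 4 libraries: 77.5 and 42.8 CPM with sham and 111 and 154 CPM with BDL. The groups did not overlap. The change of 1.15 (SE 0.31) missed the threshold at an adjusted p of 0.0625. It passed when no count filter was used (1.16, adjusted p = 0.00628), with the highest doublet scores removed (1.05, adjusted p = 0.0414), without sham replicate 1 (1.55, adjusted p = 0.00351) and without BDL replicate 1 (1.32, adjusted p = 0.00109), and was 0.54 in the 2 libraries whose names match. The effect in BEC-like cells differed from it by -0.50 (SE 0.33, adjusted p = 0.499). The noncoding gene Gm51543, which overlaps Cx3cl1, was at 0.833 to 1.54 CPM in BEC-like cells.

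The 250 bases before the Cx3cl1 start (RefSeq, GRCm38.p6, chr8:94771930-94772179, plus strand) are shown beside it, as the other ligand promoter matched. The capitals mark its only match among the 4 motifs, the letters TATAAA, which begin 6 bases before the annotated start. Here too a match describes letters only.
Cx3cl1: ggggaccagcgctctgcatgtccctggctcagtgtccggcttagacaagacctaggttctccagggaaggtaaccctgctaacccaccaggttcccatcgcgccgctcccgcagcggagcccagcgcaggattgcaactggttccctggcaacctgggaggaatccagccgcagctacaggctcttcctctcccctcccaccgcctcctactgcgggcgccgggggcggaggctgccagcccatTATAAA

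Cxcl16, the gene of the CXCR6 ligand, lay almost wholly in BEC-like cells, which held 98.1%, 95.03%, 99.0% and 98.8% of its UMIs. Its level in BEC-like cells was 194 and 159 CPM with sham and 452 and 545 CPM with BDL, without overlap, a log2 change of 1.52 (SE 0.14, 2.87-fold, adjusted p = 0.000786). In mesenchymal-like cells it stood at 36.6, 44.4, 58.4 and 60.9 CPM, and its change of 0.49 (SE 0.29, adjusted p = 0.380) missed the threshold. The 2 effects differed by 1.04 (SE 0.31, adjusted p = 0.0809), which misses it too. The coding gene Zmynd15 overlaps Cxcl16 and was counted at 11.7, 9.87, 22.0 and 18.5 CPM in BEC-like cells, and here too reads cannot be told apart where the genes overlap.

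BEC-like cells stood above mesenchymal-like cells for Cxcl16 in 4 of 4 libraries, by 2.57 ± 0.59 (SD, n = 4) on the log2(CPM + 1) scale. The exact sign-flip permutation test over the 4 libraries, chosen after the values were seen, gave its smallest possible p of 0.125 (two-sided), or 0.200 adjusted over the 8 members. By the same measure Ccl7, Csf1 and Cx3cl1 were lower in BEC-like than in mesenchymal-like cells in 4 of 4 libraries, and Ccl2 was lower in both sham and higher in both BDL libraries. Macrophage-like cells also held Cxcl16, with 0, 2, 18 and 25 UMIs in the 4 libraries, or 0, 79.1, 400.6 and 403 CPM.

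Of the 5 ligand members tested in mesenchymal-like cells edgeR called 0 higher and 0 lower, where 6.06% of 8808 genes were called, 2.34% as higher and 3.72% as lower; 3 of the 5 (Ccl2, Csf1 and Cx3cl1) had an unadjusted p under 0.05, as had 22.1% of the genes tested. DESeq2 called 0 as well. The class held far fewer cells than the BEC-like class, and its clusters were filled unevenly: a collagen-led cluster held 2, 4, 43 and 106 cells and one led by C7 and Igfbp3 held 62, 84, 1 and 1. Differences between groups in this class can therefore not be told apart from differences in which of its cells were captured.

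**Figure D2:**
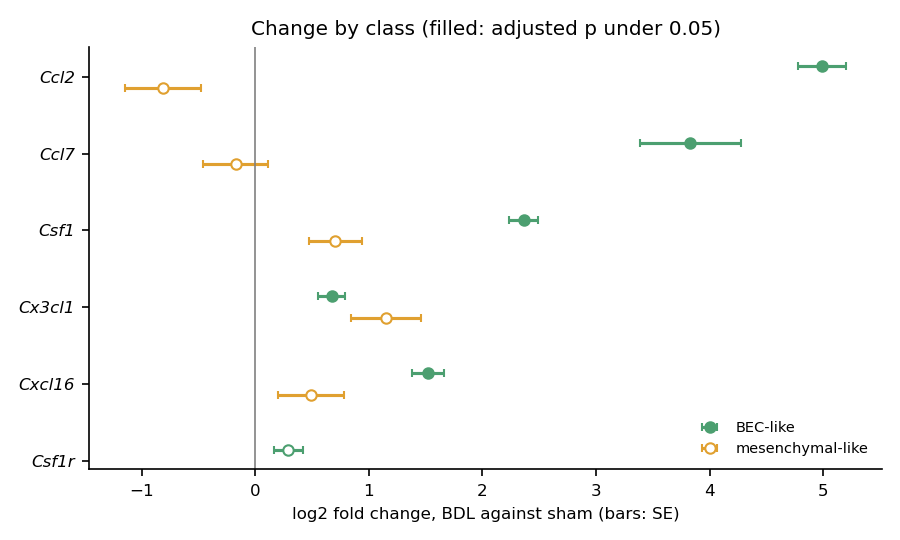
Fitted log2 fold change, BDL against sham (x axis), with its standard error, for each member that could be tested (y axis) in BEC-like (green) and mesenchymal-like (orange) cells; filled points have an adjusted p under 0.05. Filled points are the 5 ligands in BEC-like cells, from 0.67 for Cx3cl1 to 4.99 for Ccl2, and none of the mesenchymal-like points is filled.

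**Figure D3:**
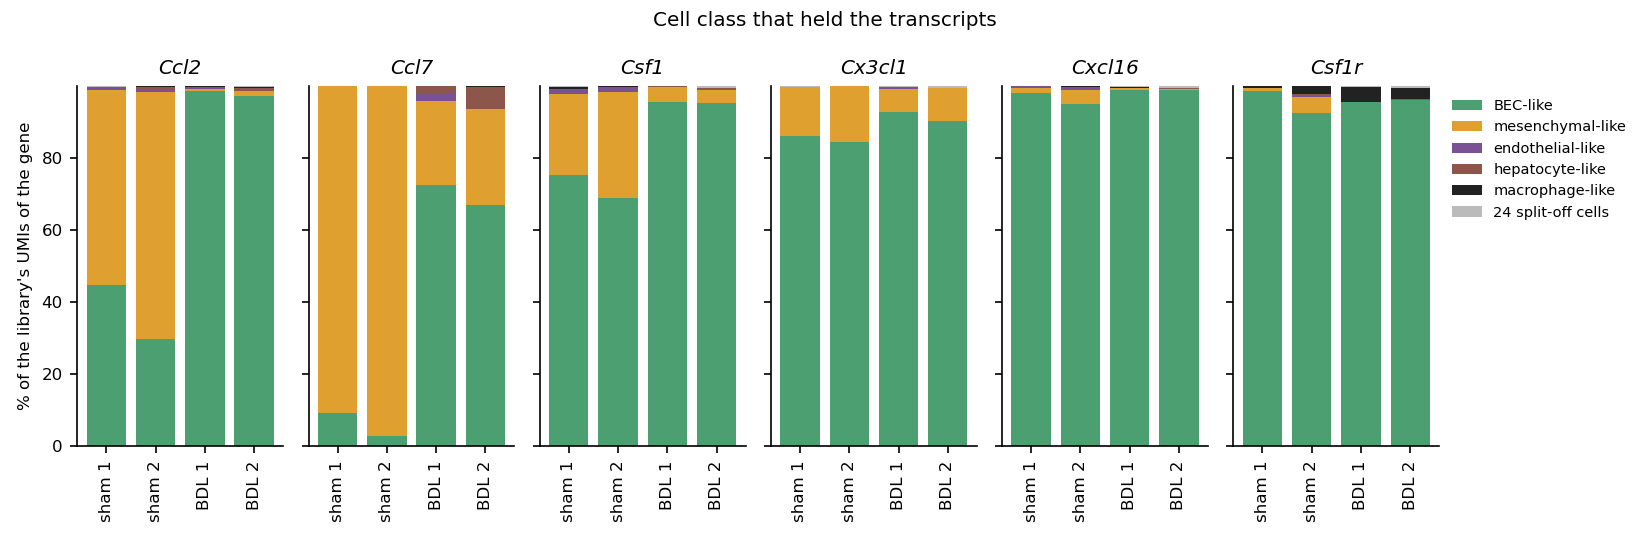
Share of each library's UMIs of a gene (y axis, percent) held by each cell class (colours) in the 4 libraries (x axis), for the 5 ligands and Csf1r. Ccl2 passes from 29.6 to 44.8% BEC-like with sham to 97.1 to 98.7% with BDL.

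Within the mesenchymal-like class the ligands had different carriers. Ccl2 was highest in a small cluster led by Slit3, Cilp and Postn, at 537 and 619 CPM with sham (16 and 13 cells). In BDL replicate 2 it stood there at 793 CPM, on 29 UMIs in 5 cells, and BDL replicate 1 had no cell in that cluster. The Reln- and Lrat-led cluster, named by leading genes known from stellate cells, held 296 and 149 CPM with sham and 197 and 194 CPM with BDL (27 and 21 cells). The collagen-led cluster, which held 43 and 106 of the BDL cells of the class and 2 and 4 of the sham cells, had Ccl2 at 54.8 and 163 CPM with BDL. Cx3cl1 was low in the Reln- and Lrat-led cluster, at 17.8 and 18.3 CPM with sham and 47.5 and 59.7 CPM with BDL. It stood at 137 and 174 CPM in the collagen-led cluster of the BDL libraries and at 209.7 and 101 CPM in the cluster led by C7 and Igfbp3 of the sham libraries.

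BEC-like cells were divided into 9 subclusters with the 8 members kept out of the genes used. Most were filled almost wholly by 1 group. Only subcluster 5, led by Pde4c and Mmp25, held at least 50 cells in every library (506, 300, 214 and 117). Within it Ccl2 was at 8.35 and 10.6 CPM with sham and 213 and 235 CPM with BDL, and Csf1 at 21.6 and 26.0 against 153 and 137 CPM. Cxcl16 stood at 79.1 and 81.8 against 272 and 329 CPM, and Cx3cl1 at 24.1 and 12.5 against 40.1 and 37.2 CPM. For these 4 ligands the groups did not overlap there. Clusterings of all cells did not share it. At resolution 1, 86.2% and 89.7% of its sham cells lay in one cluster and 92.1% and 87.2% of its BDL cells in another, and they lay apart likewise at resolution 2. These levels are descriptions, since the members' correlates helped to form the clusters.

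Among the clusters of the BDL libraries the ligand levels varied. Subcluster 2, led by Nos2 and Rasal1 and holding 512 and 1289 BDL cells, was the highest for Ccl2 (834 and 665 CPM), Csf1 (501 and 491 CPM) and Cx3cl1 (80.4 and 73.2 CPM) in both BDL libraries. Subcluster 7, led by Ltbp2 and Rfx2, was the lowest for Ccl2 of those with at least 50 BDL cells, at 152 and 109 CPM. The dividing cells of subcluster 8, marked by Mki67, held Ccl2 at 564.4 and 557 CPM.

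The sham libraries were not uniform either. Subcluster 4, led by Sgcd and Car4, held Csf1 at 133 and 135 CPM where the larger subcluster 1, led by Alb and Kcnma1, held 35.3 and 26.5 CPM. The same order was seen for Cxcl16, at 420.5 and 320.1 CPM against 155 and 97.4 CPM, and for Cx3cl1, at 59.9 and 58.5 CPM against 30.2 and 27.5 CPM. Ccl2 was low in both, at most 35.5 CPM.

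**Figure D4:**
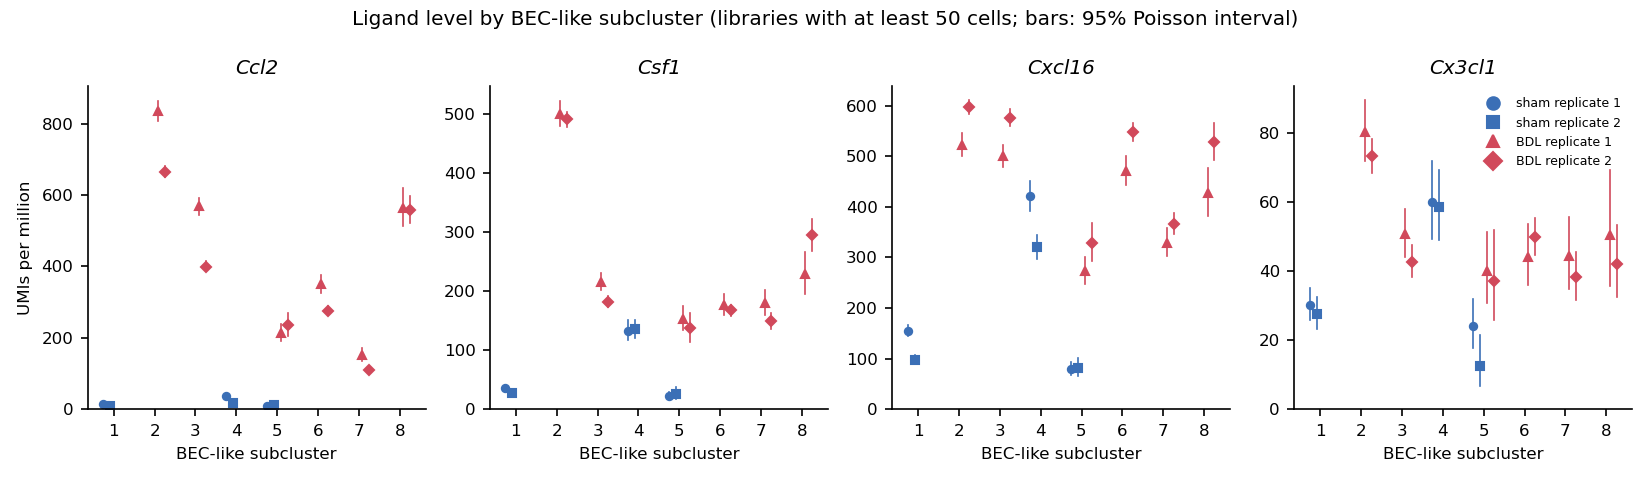
Level of 4 ligand genes in CPM (y axis, own scale per gene) by BEC-like subcluster (x axis, numbered 1 to 8), 1 point per library with at least 50 cells in that subcluster and its 95% Poisson interval; blue is sham, red is BDL. Subcluster 5 is the only one with all 4 libraries, and there the red points lie above the blue ones for each gene, though its sham and BDL cells fall in separate clusters at resolutions 1 and 2.

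At the level of single BEC-like cells Csf1 was detected more often in Ccl2-bearing than in other cells of each library. At 1000 UMIs per cell, Csf1 was detected in 24.3% of Ccl2-bearing and 17.9% of other BEC-like cells of BDL replicate 1, and in 27.7% against 16.7% in BDL replicate 2. In the sham libraries 8 of 50 Ccl2-bearing cells held it in replicate 1 and 5 of 41 in replicate 2, against 3.98% and 4.25% of the others. Cx3cl1 and Cxcl16 did not show this order in each library: both were detected more often in Ccl2-bearing cells of sham replicate 1 and both BDL libraries, but in 2.44% against 3.44% and 12.2% against 13.3% of cells in sham replicate 2. Cells of 1 library are not replicates, and no test was made.

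The receptor genes were read in the macrophage-like cells, the immune receivers. This class is thin and not of 1 kind: in the 17 sham cells Cd68 gave 0 and 1 UMI, Adgre1 1 and 0 and C1qa 0 and 2, while Ptprc, the common leukocyte gene, gave 37 and 45. In the 33 BDL cells C1qa gave 26 and 25 UMIs, C1qb 28 and 41, and Lyz2 50 and 42. The summed level of the 12 macrophage markers was 1918 and 2612 CPM with sham and 3828 and 4693 CPM with BDL. Markers of B and plasma cells gave 5, 16, 1 and 56 UMIs in the class, and Kupffer cell markers were at 0 in both sham libraries, while Marco, Clec4f, Vsig4 and Cd5l were each in 1 cell of BDL replicate 2 and at 0 in BDL replicate 1. Timd4 gave 5 UMIs in 1 cell of BDL replicate 1 and 3 in 1 cell of BDL replicate 2. Of the monocyte markers, Ly6c2 gave 9, 4, 0 and 0 UMIs, Fn1 5, 11, 11 and 155, and F13a1 7, 2, 4 and 35. The part of this makeup in the receptor levels below was not tested.

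Macrophage-like cells were 0.210% and 0.346% of the cells with sham and 0.576% and 0.517% with BDL, without overlap. They differed by 0.269 percentage points, with an exact permutation p of 0.333 (two-sided), the smallest that this design allows. With the 24 undecided cells added it was 0.581 points. How the cells were selected is not given, and a selection for biliary cells can set such shares.

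Ccr2, the receptor of CCL2 and CCL7, was nearly confined to the receivers among the classes counted. Macrophage-like cells held 2, 4, 12 and 6 of the 2, 4, 13 and 7 Ccr2 UMIs of the 4 libraries. Levels were 78.3 and 158 CPM with sham and 267 and 96.8 CPM with BDL, with the groups overlapping and intervals as wide as 138 to 466 CPM in BDL replicate 1. In BEC-like cells 0 UMIs were seen in either sham library, which allows up to 0.307 and 0.357 CPM (3 counts per library), and 1 UMI in each BDL library. In mesenchymal-like cells the count was 0 in each of the 4 libraries, which allows up to 2.38 to 5.84 CPM.

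Cx3cr1, the fractalkine receptor, varied by library rather than by group. Macrophage-like cells held 2, 1, 22 and 4 UMIs, or 78.3, 39.6, 489.6 and 64.5 CPM, so that BDL replicate 1 alone stood high and BDL replicate 2 overlapped the sham libraries. In BEC-like cells there were 4, 0, 5 and 52 UMIs. The 52 of BDL replicate 2 came from 14 of 3821 cells; 13 of the UMIs were in 1 cell and 46 in the 8 cells with more than 1 UMI. Of the 14 cells, 3 also held a UMI of a defining macrophage gene. In mesenchymal-like cells 3, 0, 3 and 13 UMIs were counted. The noncoding gene Gm33858 overlaps Cx3cr1 and gave 1 to 3 UMIs per library in BEC-like cells.

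Csf1r is one of the 12 markers by which the macrophage-like class was named, so its high level there is set by the class definition. In these cells it gave 2, 6, 22 and 38 UMIs, or 78.3 and 237 CPM with sham and 489.6 and 613 CPM with BDL, without overlap between the groups. The Poisson intervals were 9.48 to 283 and 87.1 to 517 CPM with sham and 307 to 741 and 434 to 841 CPM with BDL, so that sham replicate 2 and both BDL libraries overlapped by counting error. With the 24 undecided cells added the levels were 65.6, 237, 343 and 213 CPM, and the groups overlapped. With so few cells the levels were not tested.

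**Figure D5:**
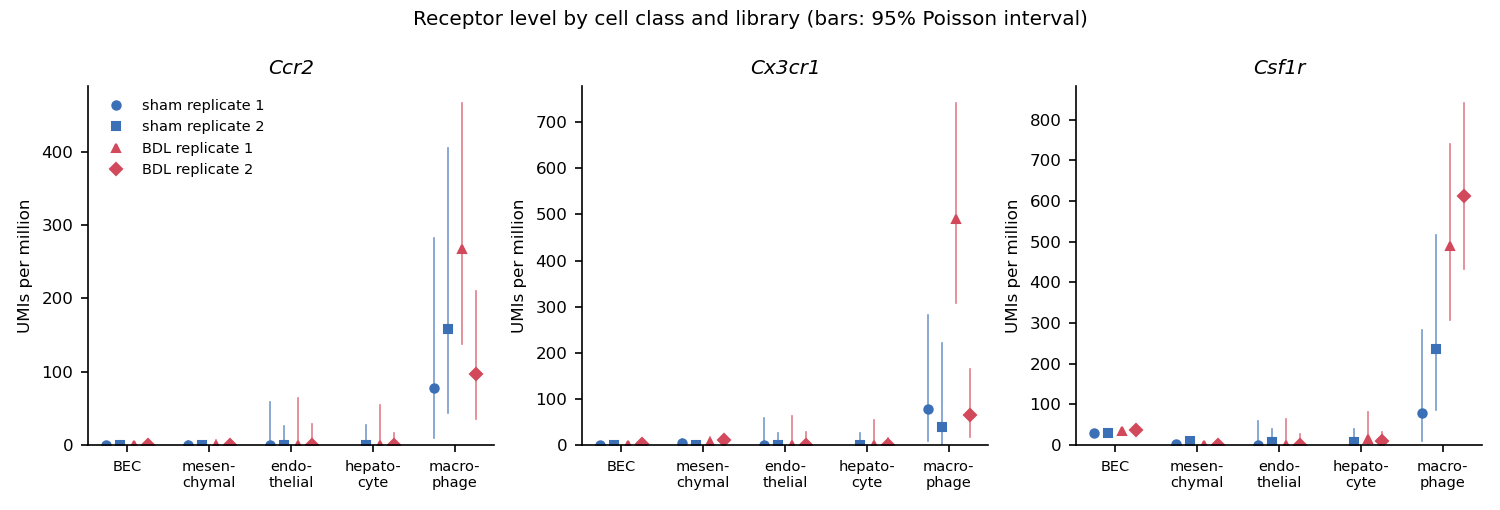
Level of each receptor gene in CPM of the class (y axis, own scale per gene) by cell class (x axis), 1 point per library with its 95% Poisson interval; blue is sham, red is BDL. Ccr2 is at 78.3 to 267 in macrophage-like cells, and Csf1r, whose level there is set by its use in naming the class, is also present at 29.3 to 37.0 in BEC-like cells.

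Of the 50 macrophage-like cells, 31 held at least 1 UMI of the 3 receptors: 14 held Ccr2, 13 Cx3cr1 and 23 Csf1r. Ccr2 and Csf1r were seen together in 10 cells, Cx3cr1 and Csf1r in 9 and Ccr2 and Cx3cr1 in 3, and the same number held all 3. At a median depth of 1643 to 3027 UMIs, a cell without a UMI is not shown to lack the receptor.

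By count, most Csf1r UMIs were in BEC-like cells: 98.6%, 92.5%, 95.4% and 96.1% of each library's total. The level there was 29.7, 29.3, 34.2 and 37.0 CPM, both BDL libraries lying a little above both sham libraries. The log2 change of 0.29 (SE 0.13, adjusted p = 0.141) missed the threshold. Mesenchymal-like cells of the same libraries held 2.82, 9.52, 0 and 0.882 CPM, and BEC-like cells stood above them in 4 of 4 libraries.

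Most BEC-like cells with Csf1r held no other defining macrophage gene. Of BEC-like cells with a Csf1r UMI, 5.26%, 2.28%, 4.23% and 6.23% held a UMI of another defining macrophage gene, and of those without Csf1r 3.87%, 3.03%, 4.27% and 3.54%. In BEC-like cells with none of those other genes Csf1r stood at 29.9, 29.7, 33.7 and 36.6 CPM, about the level in the whole class. No single BEC-like cell held more than 8 Csf1r UMIs, against 14 in a macrophage-like cell. The share of BEC-like cells with a Csf1r UMI at 1000 UMIs was 2.84%, 3.26%, 3.403% and 3.61%, above the 1.10%, 1.08%, 0% and 0% of mesenchymal-like cells.

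Within BEC-like cells Csf1r was highest, among subclusters with at least 50 cells of a library, in subcluster 7 of the BDL libraries, at 64.1 and 67.5 CPM, while subcluster 6 of the same libraries held 21.0 and 24.1 CPM. The gene is overlapped by Gm52352, a long noncoding RNA not analysed here, and by Mir6983, at 0 UMIs in BEC-like cells. Whether Csf1r UMIs here stem from an antisense transcript was not tested.

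The effect of BDL on Csf1r differed between BEC-like and mesenchymal-like cells by 3.83 (SE 1.11, adjusted p = 0.0706), on 15 mesenchymal UMIs in all. It passed the threshold when no count filter was used (3.80, adjusted p = 0.0247) and without sham replicate 1 (4.22, adjusted p = 0.0102), and ranged from 2.48 to 8.58 with each library left out. For Cx3cr1 the difference was 0.21 (SE 1.11, adjusted p = 0.960).

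From a list of 28 further genes of the pathway, 15 could be tested in BEC-like cells. Of these, 7 were called higher and 2 lower, again over the background of 27.2%. Csf2 and Ccl5, both among the 7, passed the filter on low counts through the BDL libraries, so a call as lower was hardly open to them. Ackr3, called lower, passed it through the sham libraries, so a call as higher was hardly open to it. Il34, the gene of the other CSF1R ligand, was called higher in BEC-like and lower in mesenchymal-like cells. In BEC-like cells Il34 was at 44.3 and 45.0 CPM with sham and 85.6 and 109 CPM with BDL on the TMM-scaled values (1.12, SE 0.15, adjusted p = 0.00280). In mesenchymal-like cells it was at 86.8 and 54.3 against 22.4 and 22.8 CPM (-1.61, SE 0.36, adjusted p = 0.0314). In the Reln- and Lrat-led cluster alone, which all 4 libraries fill, the raw level was 151 and 71.8 CPM with sham and 54.3 and 96.9 CPM with BDL, and the groups overlapped. The collagen-led cluster, nearly all of it BDL cells, held 8.22 and 13.6 CPM with BDL, so the lower level of the class cannot be told apart from its makeup. The difference of the effects was 2.74 (SE 0.35, adjusted p = 0.000384). Of the 15 list genes tested for that difference 5 were called (Il34, Icam1, Cxcl10, C3 and Csf2), against 4.48% of all genes. Each had the higher signed change in BEC-like cells. Csf2 did not pass the filter on low counts in mesenchymal-like cells alone. For Il34, Icam1 and Cxcl10 the change in mesenchymal-like cells was negative and the larger in size.

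The other genes that rose in BEC-like cells were Ccl5, Csf2, Mif, C3, Adam10 and Vcam1. Csf2, the growth factor GM-CSF, went from 2 and 0 UMIs with sham to 94 and 254 with BDL (adjusted p = 0.00110). C3, the central complement protein, rose by 1.69 (SE 0.18, adjusted p = 0.00130) and Vcam1, an adhesion molecule for monocyte integrins, by 1.66 (SE 0.16, adjusted p = 0.00109). The chemokine gene Ccl5 rose by 2.29 (SE 0.43, adjusted p = 0.0103) from 5 and 6 UMIs to 43 and 96. Mif, a cytokine gene, rose by 0.81 (SE 0.15, adjusted p = 0.00880).

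The sheddases of CX3CL1 and CXCL16 were detected in both sources. Adam10 rose in BEC-like cells by 0.66 (SE 0.14, adjusted p = 0.0162), and its change of 0.78 (SE 0.29, adjusted p = 0.156) in mesenchymal-like cells missed the threshold. For Adam17 the changes were 0.26 (adjusted p = 0.179) and 0.36 (adjusted p = 0.497). Cxcr6, the CXCL16 receptor, gave 1 UMI in the macrophage-like cells of all 4 libraries together and 2 in BEC-like cells, too few to compare.

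Most of the list genes called lower were called in mesenchymal-like cells. Cxcl12, a chemokine made by stromal cells, fell in mesenchymal-like cells from 1816 and 1644 to 492 and 541 CPM on the TMM scale (-1.74, SE 0.24, adjusted p = 0.00701), and Cxcl10, an interferon-induced chemokine, from 1062 and 827 to 256 and 130.4 CPM (-2.32, SE 0.33, adjusted p = 0.00751). Icam1, an adhesion molecule, fell there by 1.49 on the log2 scale (SE 0.27, adjusted p = 0.0161), whereas Vcam1 rose by 1.05 (SE 0.23, adjusted p = 0.0294). In all, 1 gene of the list rose and 4 fell among the 12 tested in mesenchymal-like cells, where 2.34% of all genes were called higher and 3.72% lower. In BEC-like cells Cxcl12 (-1.60, SE 0.30, adjusted p = 0.0102) and the scavenger receptor gene Ackr3 fell, both at under 6 CPM.

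Profiles over 4 classes and 4 libraries (16 class sums, log2(CPM + 1), 9400 genes) gave the genes most like 7 of the 8 members by Pearson's r, as a description in which sums of 1 library share its depth. For Ccl2 they were Tle3 (0.84), Rgs5 (0.83) and Ehd1 (0.83). For Ccl7 they were Col6a6 (0.93), Art4 (0.88) and Col5a1 (0.87). Cxcl16 was closest to Gpbp1l1 (0.95), Sbf1 (0.94) and Dnajc2 (0.93), and Cx3cl1 to Zfp282 (0.95), Ncam1 (0.93) and Mex3a (0.93). Ccr2 went with Mefv (0.997), Laptm5 (0.996) and B3gnt5 (0.995), Cx3cr1 with Rab7b (0.95), Ctsz (0.95) and Lyz2 (0.95), and Csf1r with Fgr (0.93), Rbm47 (0.93) and Stat4 (0.92).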

How the data were processed

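Per the labels' protocols, fixed cells went through the Evercode kit of Parse Biosciences, which barcodes RNA in rounds of splitting and pooling. Priming was with oligo(dT) and random hexamers. The deposited matrices hold raw counts of UMIs per cell and gene; the reference is mm39refseq per the file headers, and the counting software is not given in the sources used here.

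Cells under 500 UMIs (7) or over 20% mitochondrial UMIs (10) were left out of 12211. Scrublet called 14 of the rest (0.115%), too few to have worked; these were removed, and dropping the top 5% of doublet scores in each library is an alternative. The 2000 most variable genes gave 30 principal components and Leiden clusters at resolution 1 (20 neighbours; scanpy 1.11.5, leidenalg 0.10.2). A class name needed at least 3 markers and 50% of its list, each seen in 5% or more of its cells and over 2-fold above other cells; markers used are not results. For subclusters of BEC-like cells the resolution was 0.5. Macrophage-like cells were those in that class at resolutions 1 and 2; their class and the rebuilt names may differ from the study's. The 8 members and all lists were chosen with earlier results of these data known.

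Counts summed per library and class (at least 30 cells in every library) went into edgeR 4.0.16 under R 4.3.3, with TMM scaling, its standard count filter and the two-sided quasi-likelihood test; p-values were adjusted by Benjamini-Hochberg over all genes (threshold 0.05); DESeq2 1.42.0 was an alternative. SEs were derived from the F statistic. The fits were tested on simulated data. Raw CPM, exact Poisson and Clopper-Pearson 95% intervals cover counting error only. Named were all members, the list genes with the smallest adjusted p (up to 8 in BEC-like and 4 in mesenchymal-like cells), and Il34, Cxcr6, Adam10 and Adam17; Ackr3 and the marker and overlapping genes were added after their values were seen. Promoters of 4 of the 8 members matched the RefSeq table by symbol. The genes most like Csf1 are not reported here.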

Additional observations from a re-analysis of the deposited data

Results flagged for a closer look

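The effect of BDL differed between BEC-like and mesenchymal-like cells, by a test of the difference itself, for 3 ligands. The log2 change in BEC-like minus that in mesenchymal-like cells was 5.82 for Ccl2, 3.996 for Ccl7 and 1.66 for Csf1 (edgeR interaction with a block for each library, adjusted p = 8.83e-07, 0.000341 and 0.00231). For Ccl2 and Ccl7 the fitted change was positive in BEC-like and negative in mesenchymal-like cells, where it missed the threshold; for Csf1 it was positive in both. The part that the makeup of the mesenchymal-like class had in these differences was not tested.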

How the results depend on the processing

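Values from only the 2 libraries whose names match hold no test, and were counted by direction alone in BEC-like and mesenchymal-like cells. Over 71 alternative fits of single members in BEC-like cells, 69 kept the direction and, where tested, the side of the threshold of the main value. The other 2 are the Cx3cl1 values without a sham library given above. The number of members called higher there ranged from 4 to 6 with 1 library left out and was 6 with no filter on low counts. The sixth, there and without BDL replicate 1, was Cx3cr1 (2.41 and 2.91, adjusted p = 0.00762 and 0.00291), which rests on 52 UMIs in 14 cells of BDL replicate 2; the number called lower was 0 in each fit. In mesenchymal-like cells 52 of 60 such fits stayed, 7 passed the threshold (Ccl2 and Cx3cl1) and Ccl7 ranged from -0.42 to 0.067 with 1 library left out, turning positive without sham replicate 1. The number called higher there, 0 in the main fit, was 1 with no filter and 1 with the highest doublet scores removed, and 0 to 1 with 1 library left out; the number called lower was 1 with the highest doublet scores removed and 0 to 1 with 1 library left out. For the difference of effects 45 of 49 stayed, and that of Cx3cr1 ranged from -3.18 to 0.52, reversing to -3.18 without sham replicate 1 and -0.73 without BDL replicate 2. The cause of these changes was not tested.

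The share of macrophage-like cells differed by 0.201 to 0.337 points with 1 library left out and by 0.581 with the whole cluster, an alternative chosen after seeing the data, as was the use of the 2 libraries whose names match. The rise in the share of BEC-like cells with a Ccl2 UMI was 25.7 to 29.9 points with 1 library left out, 41.3 at 2000 UMIs per cell and 61.6 unthinned; shares of the other ligands grew with depth likewise.

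No paired analysis was possible because no label numbers the replicates of a group. A group reduced to 1 library is taken to vary as the other does. The 50 macrophage-like cells limit the receptors, which rest on 2 to 38 UMIs per library for Csf1r and 2 to 12 for Ccr2.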

Other observations

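Hepatocyte-like cells, marked by genes such as Alb and Apob, also held Ccl2 after BDL. BDL replicate 1 gave 36 Ccl2 UMIs in 5 of 7 such cells and BDL replicate 2 gave 128 in 19 of 32, which is 527 and 556 CPM, while sham replicate 2 gave 2 UMIs in 36 cells. Csf1 was at 146 and 135 CPM in the same BDL cells and at 0 UMIs in both sham libraries. The list of 11 biliary markers summed to 11031 and 9801 CPM in these BDL cells, close to the level of BEC-like cells. It summed to 655 and 2803 CPM in the sham cells of the class. The part of biliary RNA or of doublets in the Ccl2 and Csf1 values was not tested.

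Endothelial-like cells held Ccl2 at 64.0, 20.7, 86.1 and 83.9 CPM on 3 to 11 UMIs per library. Their Cxcl16 level was 144, 62.0, 86.1 and 83.9 CPM, so the groups overlapped. Cx3cl1 was at 0 UMIs in both sham libraries of this class and at 1 UMI in each BDL library.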
